A study of Mus musculus with 42 samples.

Results

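The transcripts of 9 genes of the acute phase response and of signalling by interleukin 6 (IL6) through STAT3 were followed by RNAseq in tibialis anterior (TA) muscle, a muscle of the lower hindlimb. They were chosen by name from the 13809 genes of the deposited table, and all 9 were present: the receptor subunits Il6ra, Il6st and Osmr, the transcription factors Stat3, Cebpb and Cebpd, the feedback inhibitor Socs3, and the acute phase genes Lcn2 and Serpina3n. The 42 libraries form 11 groups in 2 sets, all from male C57BL/6J mice of 4 months. Set 1 holds WT mice, Sesn1SkM-Tg mice, which carry human Sesn1 under the muscle creatine kinase promoter, and Sesn2SkM-Tg mice, whose human Sesn2 transgene is tetracycline-regulated and driven in muscle by the same promoter. Each set 1 genotype was sampled basal and immobilized, with 4 libraries in a group, except 3 for immobilized WT and 3 for immobilized Sesn1SkM-Tg muscle. Set 2 holds WT mice in basal, immobilized and denervated condition and Sesn1KO mice, labelled Sesn1-/-, in the basal and immobilized states, with 4 libraries in each group. Basal muscle came from mice that underwent no atrophy procedure. Immobilized muscle came from a hindlimb held by rigid sticks and bandage for 3 days, and denervated muscle was taken 3 days after 5 mm of the sciatic nerve had been cut out. By the study's methods each transgenic line had littermate controls of its own, whereas the labels give 1 WT group in set 1 and do not say from which line it came, so an effect of a transgene and a difference between lines cannot be told apart there. The methods describe the controls of the Sesn1KO mice as normal WT mice and, in a summary of all lines, as littermate controls. The labels do not say which library came from which animal, so p-values measure the spread between these libraries.

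As background, IL6 binds its receptor IL6RA, and the complex then engages the shared signalling subunit gp130, encoded by Il6st. The Janus kinases bound to gp130 phosphorylate STAT3, which enters the nucleus and switches on genes such as Socs3, whose product in turn blocks the receptor complex. Oncostatin M acts through gp130 paired with OSMR. In liver, STAT3 together with C/EBPβ and C/EBPδ drives the acute phase response, the release of plasma proteins such as serine protease inhibitors and lipocalin-2 after injury or infection, and skeletal muscle is known to express parts of the same programme in disease and wasting.

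By the GENCODE M21 annotation of GRCm38, the genes lie at chr12:104406729-104414329 on the plus strand (Serpina3n), chr2:32384633-32388252 on the minus strand (Lcn2), chr11:117966079-117970047 on the minus strand (Socs3), chr11:100885098-100939540 on the minus strand (Stat3), chr2:167688915-167690418 on the plus strand (Cebpb), chr16:15887286-15891031 on the plus strand (Cebpd), chr3:89864059-89913196 on the minus strand (Il6ra), chr13:112464070-112510086 on the plus strand (Il6st) and chr15:6813577-6874969 on the minus strand (Osmr). RefSeq (GRCm38.p6) gave a promoter for 8 of the 9, all but Cebpd. The 250 bases before the annotated start were searched on both strands for 3 motifs: the STAT motif TTCNNNGAA, held by 7.02% of 32851 promoters, the C/EBP motif TTGCNNAA, held by 9.56%, and the glucocorticoid receptor motif ACANNNTGT, held by 5.84%. A match was found for 3 of the 8 members. The Serpina3n window at chr12:104406458-104406707, on the plus strand, is shown because this gene had the largest change of the members in immobilized WT muscle of set 1; its single match, to the glucocorticoid receptor motif, is in capitals.
Serpina3n: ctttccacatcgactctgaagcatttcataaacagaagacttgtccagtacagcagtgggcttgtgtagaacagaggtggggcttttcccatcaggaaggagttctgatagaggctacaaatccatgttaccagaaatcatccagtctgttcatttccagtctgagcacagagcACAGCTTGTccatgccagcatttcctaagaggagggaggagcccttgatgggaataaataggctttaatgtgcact
The windows of Lcn2 and Socs3 overlap exons of other transcripts of these genes over 197 and 77 bases, so only their matches, in capitals, are given with their flanks, on the minus strand at chr2:32387938-32387965 (C/EBP) and chr2:32387873-32387901 (glucocorticoid receptor) for Lcn2 and chr11:117969502-117969530 (STAT) for Socs3.
Lcn2 C/EBP match: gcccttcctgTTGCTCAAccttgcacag
Lcn2 glucocorticoid receptor match: aagtatttcaACAGAATGTactggcaatt
Socs3 STAT match: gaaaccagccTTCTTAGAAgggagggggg
A match describes the letters only. The windows of Stat3, Cebpb, Il6ra, Il6st and Osmr held none of the 3 motifs, though that of Osmr lies in annotated exon over all of its 250 bases.

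Values are normalized counts as the authors deposited them, on a linear scale. Fold changes were fitted with limma on log2(value + 1), which understates the change of genes near or below a value of 1, and a call needed an adjusted p under 0.05 (Benjamini-Hochberg over all genes of the comparison) together with a log2 fold change of 0.25 or more in either direction. The values of a library summed to 722430 to 1276769, and read depth is unknown, so no counting error is given. The sums were lower in immobilized and denervated muscle: 830698 to 880365 in immobilized against 1064363 to 1159418 in basal WT muscle of set 1. Markers of muscle fibres were high in every library (10 of 10 in the table, summed at 52826 to 162628). The targeted gene was read on the mouse row of the table. Sesn1 reached 41.6 to 77.6 in basal Sesn1SkM-Tg against 14.98 to 22.1 in basal WT muscle, and Sesn2 6.54 to 13.0 in basal Sesn2SkM-Tg against 2.18 to 3.39. In Sesn1KO muscle Sesn1 was 8.41 to 10.05 in basal muscle against 22.5 to 29.7 in WT, and 19.4 to 37.3 in immobilized muscle against 30.7 to 53.1, so a Sesn1 signal remained in the knockout.

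In basal WT muscle Il6st, Stat3 and Cebpb stood above the other 6 members. Per kilobase of annotated exon, the only scale on which levels of different genes are compared here, Il6st was highest in set 1 at 18.4 ± 0.661 normalized counts (SD, n = 4), followed by Stat3 at 5.25 ± 0.141 and Cebpb at 4.54 ± 1.98, which do not differ beyond their spread. The other 6 members lay below 1 per kilobase, from Cebpd at 0.761 ± 0.370 and Serpina3n at 0.740 ± 0.182, through Socs3 at 0.606 ± 0.198 and Osmr at 0.490 ± 0.182, to Il6ra at 0.278 ± 0.0417 and Lcn2 at 0.0988 ± 0.0872. In immobilized WT muscle of set 1, Serpina3n reached 24.7 ± 5.11 per kilobase (n = 3), the level of Il6st at 24.3 ± 4.62. In immobilized muscle of set 2 (n = 4) the mean of Serpina3n stayed below that of Il6st. There it was 13.0 ± 6.71 against 22.4 ± 1.78 in WT and 14.1 ± 13.3 against 23.7 ± 1.60 in Sesn1KO muscle.

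**Figure D1:**
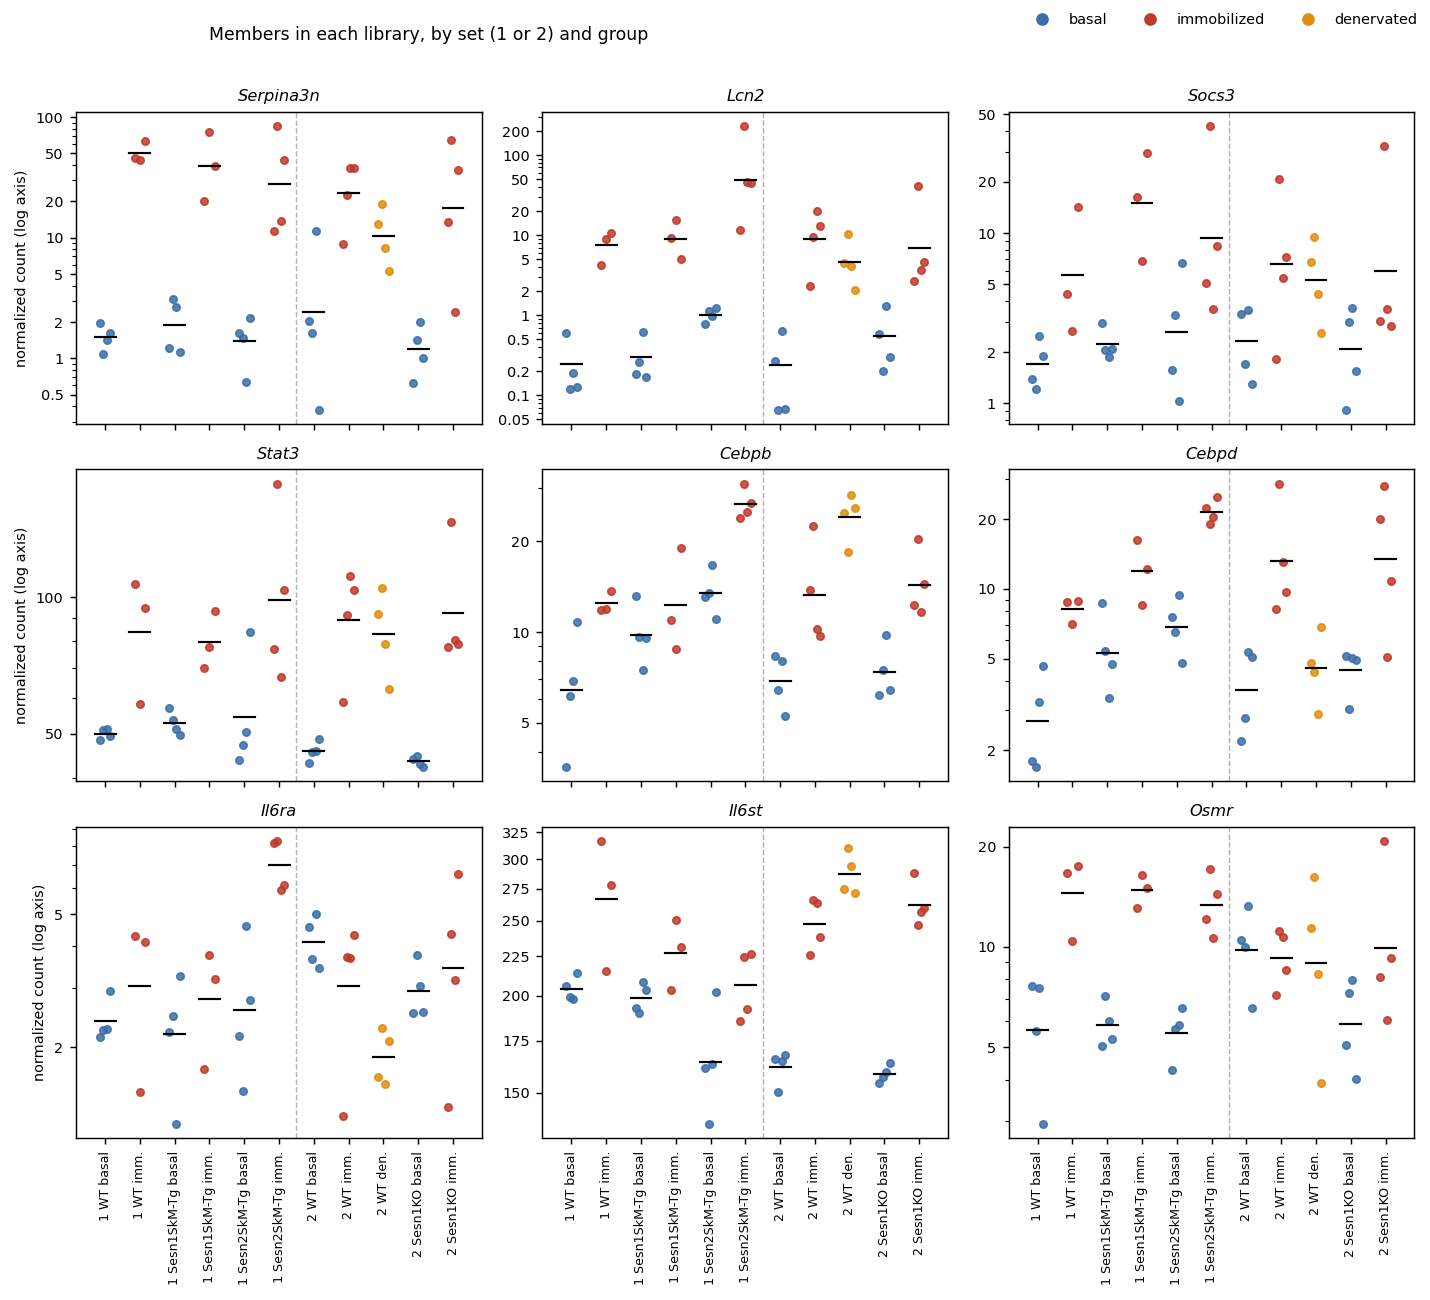
Normalized counts (log axis) of the 9 members in each library, by set and group, with basal libraries in blue, immobilized ones in red and denervated ones in orange; bars are means of log2(value + 1) turned back to the linear scale. Serpina3n and Lcn2 lie higher in every immobilized group than in its basal group on average, and the library of immobilized Sesn2SkM-Tg muscle at 228 for Lcn2 is the highest of all.

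Serpina3n, which encodes a secreted serine protease inhibitor, rose in all 5 comparisons of immobilized with basal muscle and after denervation. In set 1 the basal WT libraries held 1.98, 1.08, 1.43 and 1.61 normalized counts and the immobilized ones 45.8, 44.1 and 63.2. The ratio of means was 33.4 (log2 fold change 4.36, SE 0.49, adjusted p = 7.55e-06), and the ranges were far apart. In Sesn1SkM-Tg muscle the basal values were 1.23, 3.08, 2.64 and 1.12 and the immobilized ones 20.2, 74.99 and 39.2 (log2 fold change 3.79, SE 0.49, adjusted p = 2.03e-05). Sesn2SkM-Tg muscle went from 1.62, 1.48, 0.638 and 2.15 to 11.5, 83.6, 13.8 and 44.3 (log2 fold change 3.59, SE 0.45, adjusted p = 7.32e-06). No basal value of set 1 reached the lowest immobilized value in any genotype. In set 2 the basal WT values were 2.05, 1.64, 11.4 and 0.378, so that 1 basal library stood above the lowest of the immobilized ones, at 8.91, 22.7, 37.6 and 37.8 (log2 fold change 2.83, SE 0.70, adjusted p = 0.00347). The denervated muscles held 13.001, 18.98, 8.29 and 5.298 (log2 fold change 1.72, SE 0.70, adjusted p = 0.0419), the smallest of the 6 changes, overlapping the basal range because of that 1 library. The denervation call was lost without basal replicate 1, 2 or 4 or denervated replicate 1, 2 or 3 (adjusted p between 0.0555 and 0.145), and with a pseudocount of 5 (adjusted p = 0.1097). Basal Sesn1KO muscles held 0.622, 1.42, 2.01 and 1.005 and immobilized ones 13.5, 64.5, 2.44 and 36.4 (log2 fold change 3.08, SE 0.70, adjusted p = 0.00152). The spread between immobilized Sesn1KO libraries, from 2.44 to 64.5, was wide, but the lowest still exceeded the basal values. Of the other 10 Serpina3 genes listed, 3 were in the table, and together they summed to 2.50 to 4.63 in immobilized WT muscle of set 1, against 44.1 to 63.2 for Serpina3n; these paralogs are near-identical in part, so the split of reads between them is uncertain.

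Lcn2, which encodes lipocalin-2, a secreted protein that binds bacterial siderophores, was low in basal muscle and was called higher in all 6 comparisons as well. Basal WT libraries of set 1 held 0.599, 0.119, 0.191 and 0.128 and immobilized ones 4.23, 9.01 and 10.7 (log2 fold change 2.77, SE 0.56, adjusted p = 0.00117). In Sesn1SkM-Tg muscle the basal values were 0.186, 0.2601, 0.615 and 0.1702 and the immobilized values 9.17, 15.5 and 5.09 (log2 fold change 2.96, SE 0.56, adjusted p = 5.27e-04). The groups did not overlap in either genotype. Sesn2SkM-Tg muscle had the largest change of any member in any comparison with basal muscle, from 0.765, 1.12, 0.966 and 1.23 to 11.4, 228, 46.6 and 44.4 (log2 fold change 4.63, SE 0.52, adjusted p = 1.92e-06). The library at 228 was the highest, and the other 3 lay between 11.4 and 46.6, still above every basal value. In set 2, WT muscle went from 0.269, 0.0662, 0.627 and 0.0674 to 2.34, 9.37, 19.8 and 13.03 after immobilization (log2 fold change 3.02, SE 0.59, adjusted p = 4.95e-04) and to 4.48, 10.4, 4.13 and 2.06 after denervation (log2 fold change 2.18, SE 0.59, adjusted p = 0.00375). Neither range touched the basal one. With a pseudocount of 5 in place of 1, the calls in WT muscle of set 1 and after denervation were lost (adjusted p = 0.0534 and 0.0667). In Sesn1KO muscle the basal values of 0.581, 0.2002, 1.29 and 0.3001 rose to 2.68, 40.97, 3.62 and 4.59 (log2 fold change 2.37, SE 0.59, adjusted p = 0.00335), with 1 library at 41.0 far above the other 3.

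Socs3, the feedback inhibitor of the gp130 receptor complex, was called higher in 2 of the 6 comparisons. In Sesn1SkM-Tg muscle it rose from 2.95, 2.06, 1.87 and 2.09 to 16.2, 6.89 and 29.5 (log2 fold change 2.32, SE 0.60, adjusted p = 0.00569), without overlap. In Sesn2SkM-Tg muscle it went from 1.58, 3.28, 1.03 and 6.68 to 5.096, 42.4, 3.59 and 8.35 (log2 fold change 1.51, SE 0.56, adjusted p = 0.0447), where the basal and immobilized ranges overlap and 1 library at 42.4 is far above the rest. Without that library the log2 fold change was 0.82 and the adjusted p 0.225, and the call was also lost without basal replicate 1, 2 or 3 or immobilized replicate 4 (adjusted p between 0.0533 and 0.137). The Sesn1SkM-Tg call was lost without immobilized replicate 3 (adjusted p = 0.053). In WT muscle of set 1 every immobilized value, 4.39, 2.65 and 14.3, exceeded the basal values of 1.39, 1.22, 2.49 and 1.903, but the adjusted p was 0.107 at a log2 fold change of 1.31. The set 2 differences of 1.19 in WT (from 3.33, 1.696, 3.54 and 1.302 to 1.83, 20.9, 5.46 and 7.21), 1.18 in Sesn1KO (from 0.9195, 3.01, 3.64 and 1.55 to 3.07, 32.5, 3.56 and 2.83) and 0.92 after denervation (6.72, 9.43, 4.37 and 2.604) did not pass the test. Their ranges overlapped the basal ones, and single high libraries carried the means after immobilization. Without immobilized WT replicate 1, the lowest, the set 2 WT difference was 1.66 with an adjusted p of 0.0398.

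Stat3, the transcription factor that gp130 activates, was called higher in 5 of the 6 comparisons, by log2 fold changes near or below 1, from basal values that lay close together in most groups. Basal WT muscle of set 1 held 48.5, 51.1, 51.2 and 49.4 and immobilized muscle 107, 58.2 and 94.7 (log2 fold change 0.73, SE 0.26, adjusted p = 0.0366). This call was lost without any 1 of the 4 basal libraries or immobilized replicate 1 or 3 (adjusted p between 0.0547 and 0.152). Sesn1SkM-Tg muscle went from 57.03, 53.6, 51.3 and 49.6 to 69.8, 77.6 and 93.1, a log2 fold change of 0.58 that missed the threshold (adjusted p = 0.0848) although the groups did not overlap. This difference was called with quantile normalization (adjusted p = 0.0311) and with each library scaled to the same sum (adjusted p = 0.0229). It was also called when the fit held only the groups compared (adjusted p = 0.00714). In Sesn2SkM-Tg muscle, from 43.8, 47.3, 50.6 and 83.96 to 76.8, 178, 66.8 and 104, Stat3 was called (log2 fold change 0.85, SE 0.24, adjusted p = 0.0102), but without the library at 178 the adjusted p became 0.0535. In set 2 it rose from 43.01, 45.5, 45.9 and 48.6 to 58.9, 91.4, 112 and 104 after immobilization (log2 fold change 0.94, SE 0.19, adjusted p = 6.45e-04) and to 91.7, 105, 79.1 and 62.7 after denervation (log2 fold change 0.85, SE 0.19, adjusted p = 7.59e-04). No denervated or immobilized library fell into the basal range. In Sesn1KO muscle it went from 44.1, 44.6, 42.97 and 42.3 to 77.7, 147, 80.3 and 78.8 (log2 fold change 1.07, SE 0.19, adjusted p = 1.62e-04).

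The receptor subunits behaved differently from each other. Il6st rose in 4 of the 6 comparisons by less than a log2 fold change of 1. In set 1 it went from 206, 199.6, 198 and 214 to 317, 215 and 278 in WT muscle (log2 fold change 0.38, SE 0.14, adjusted p = 0.0408). In set 2 it rose from 166, 150.5, 165 and 168 to 226, 266, 264 and 238 in immobilized WT (log2 fold change 0.61, SE 0.07, adjusted p = 2.85e-06). Denervated WT muscles held 275, 310.2, 294 and 272 (log2 fold change 0.82, SE 0.07, adjusted p = 7.97e-09), above every basal and every immobilized WT library of the set. Sesn1KO muscle went from 154, 157, 159 and 164 to 288, 247, 256 and 259.8 (log2 fold change 0.72, SE 0.07, adjusted p = 2.16e-07). The transgenic muscles moved from 193, 190.2, 208 and 203 to 203, 250.3 and 231 in Sesn1SkM-Tg (adjusted p = 0.284) and from 161, 137, 164 and 203 to 186, 225, 192 and 226 in Sesn2SkM-Tg (adjusted p = 0.0565), neither of which was called. With each library scaled to the same sum both were called, Sesn1SkM-Tg at 0.501 (adjusted p = 0.0274) and Sesn2SkM-Tg at 0.637 (adjusted p = 0.0039) on the log2 scale, and both also with quantile normalization (adjusted p = 0.04996 and 0.0425). The Sesn2SkM-Tg difference was further called with both sets in 1 fit (adjusted p = 0.0116) and without basal replicate 4 or immobilized replicate 1 (adjusted p = 0.0194 and 0.0465). The set 1 WT call was lost without either of 2 immobilized libraries or any of 3 basal ones, with adjusted p between 0.0642 and 0.202. It was also lost with median centring (adjusted p = 0.0544) and with eBayes without trend (adjusted p = 0.0522). When the fit held only the groups compared, its adjusted p was 0.119.

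Osmr, the subunit that pairs with gp130 for oncostatin M, was called higher in all 3 genotypes of set 1 and in no comparison of set 2. It went from 7.65, 5.61, 7.55 and 2.95 to 16.6, 10.4 and 17.5 in WT (log2 fold change 1.23, SE 0.24, adjusted p = 7.92e-04), from 5.06, 7.15, 5.998 and 5.299 to 13.1, 16.5 and 15.1 in Sesn1SkM-Tg (log2 fold change 1.21, SE 0.24, adjusted p = 6.86e-04) and from 4.27, 5.67, 5.82 and 6.58 to 12.1, 17.1, 10.6 and 14.4 in Sesn2SkM-Tg muscle (log2 fold change 1.14, SE 0.22, adjusted p = 5.18e-04). None of these ranges overlapped. In set 2 WT muscle the basal values were 10.5, 9.99, 13.3 and 6.56, the immobilized ones 7.19, 11.2, 10.7 and 8.53 and the denervated ones 11.4, 16.2, 8.303 and 3.91, with log2 fold changes of -0.07 and -0.12 that did not pass. Sesn1KO muscle went from 5.096, 7.27, 7.94 and 4.01 to 8.14, 20.8, 6.03 and 9.28, a log2 fold change of 0.67 with an adjusted p of 0.122. The difference between the sets was not tested. Of all genes, 14.9%, 18.2% and 15% were called higher in WT, Sesn1SkM-Tg and Sesn2SkM-Tg muscle of set 1. In set 2 the shares were 16.2% in immobilized WT and 17.2% in Sesn1KO muscle. Of the markers of macrophages and leukocytes, 10 of 10 tested rose in WT and in Sesn1SkM-Tg muscle and 4 in Sesn2SkM-Tg muscle of set 1, against 3 in WT and 1 in Sesn1KO muscle of set 2. Their summed level went from 47.9 to 76.4 in basal to 244 to 472 in immobilized WT muscle of set 1, and from 43.8 to 181 to 143 to 270 in set 2, and their part in the values of Osmr was not tested.

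Il6ra, the subunit that binds IL6, was low in every group, between 1.18 and 8.29. It was called higher in 1 of 5 immobilization comparisons, that of Sesn2SkM-Tg muscle, from 2.15, 1.47, 4.61 and 2.76 to 8.15, 8.29, 5.904 and 6.097 (log2 fold change 1.17, SE 0.27, adjusted p = 0.00237), without overlap, and lower after denervation, from 4.59, 3.66, 4.99 and 3.45 to 1.62, 2.29, 1.56 and 2.08 (log2 fold change -0.84, SE 0.28, adjusted p = 0.0156). The denervation call ended when each library was scaled to the same sum (log2 fold change -0.51, adjusted p = 0.145). In the other 4 comparisons the log2 fold change lay between -0.35 and 0.26. The values there went from 2.15, 2.25, 2.27 and 2.94 to 4.29, 1.47 and 4.12 in set 1 WT muscle and from 2.22, 2.49, 1.18 and 3.26 to 1.72, 3.78 and 3.19 in Sesn1SkM-Tg muscle. In set 2 immobilized WT muscles held 1.24, 3.73, 3.71 and 4.31, and Sesn1KO muscles went from 2.53, 3.78, 3.04 and 2.55 to 1.33, 4.37, 3.19 and 6.57, each with 1 low library at 1.24 and 1.33.

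Cebpb and Cebpd, the C/EBP factors of the acute phase response, were called higher in 4 and in all 5 of the immobilization comparisons, respectively. After denervation Cebpb was called and Cebpd was not. Cebpd was called in all 5 immobilization comparisons. WT muscle of set 1 went from 1.81, 1.702, 3.25 and 4.64 to 8.81, 7.06 and 8.85 (log2 fold change 1.32, SE 0.27, adjusted p = 0.00131), Sesn1SkM-Tg muscle from 8.66, 5.39, 3.38 and 4.72 to 16.2, 8.55 and 12.3 (log2 fold change 1.05, SE 0.27, adjusted p = 0.00543) and Sesn2SkM-Tg muscle from 7.53, 6.51, 9.41 and 4.78 to 22.5, 19.03, 20.4 and 24.9 (log2 fold change 1.52, SE 0.25, adjusted p = 1.23e-04). The immobilized values lay above the basal ones in WT and Sesn2SkM-Tg muscle, while in Sesn1SkM-Tg muscle the ranges touched. In set 2 WT muscle rose from 2.19, 2.76, 5.35 and 5.08 to 8.18, 28.6, 13.03 and 9.74 (log2 fold change 1.62, SE 0.39, adjusted p = 0.00304) and Sesn1KO muscle from 5.12, 3.03, 5.05 and 4.91 to 20.1, 27.9, 5.102 and 10.8 (log2 fold change 1.41, SE 0.39, adjusted p = 0.00722). The denervated values of 4.76, 4.37, 2.87 and 6.85 stayed in the basal range apart from 1 library (log2 fold change 0.26, adjusted p = 0.606).

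Cebpb was called in 4 of the 5 immobilization comparisons. It went from 3.57, 6.11, 6.87 and 10.8 to 11.9, 11.9 and 13.7 in WT muscle of set 1 (log2 fold change 0.86, SE 0.25, adjusted p = 0.0149), but the call was lost without basal replicate 1 or immobilized replicate 3 (adjusted p = 0.0549 and 0.0713). Sesn1SkM-Tg muscle, from 13.2, 9.66, 7.48 and 9.52 to 10.999, 8.75 and 18.97, did not pass (log2 fold change 0.30, adjusted p = 0.376). Sesn2SkM-Tg muscle rose from 13.1, 13.4, 16.8 and 11.04 to 23.97, 31.1, 25.02 and 26.8 (log2 fold change 0.93, SE 0.24, adjusted p = 0.00478). In set 2 immobilization took it from 8.295, 6.41, 7.99 and 5.26 to 13.8, 22.5, 10.2 and 9.69 in WT (log2 fold change 0.86, SE 0.22, adjusted p = 0.00482) and from 6.18, 7.49, 9.803 and 6.42 to 12.3, 20.4, 11.7 and 14.5 in Sesn1KO muscle (log2 fold change 0.88, SE 0.22, adjusted p = 0.00348). Denervation gave the largest change of Cebpb, to 24.9, 18.5, 28.5 and 25.9 (log2 fold change 1.67, SE 0.22, adjusted p = 1.76e-06). All 4 denervated values were above all basal ones.

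**Figure D2:**
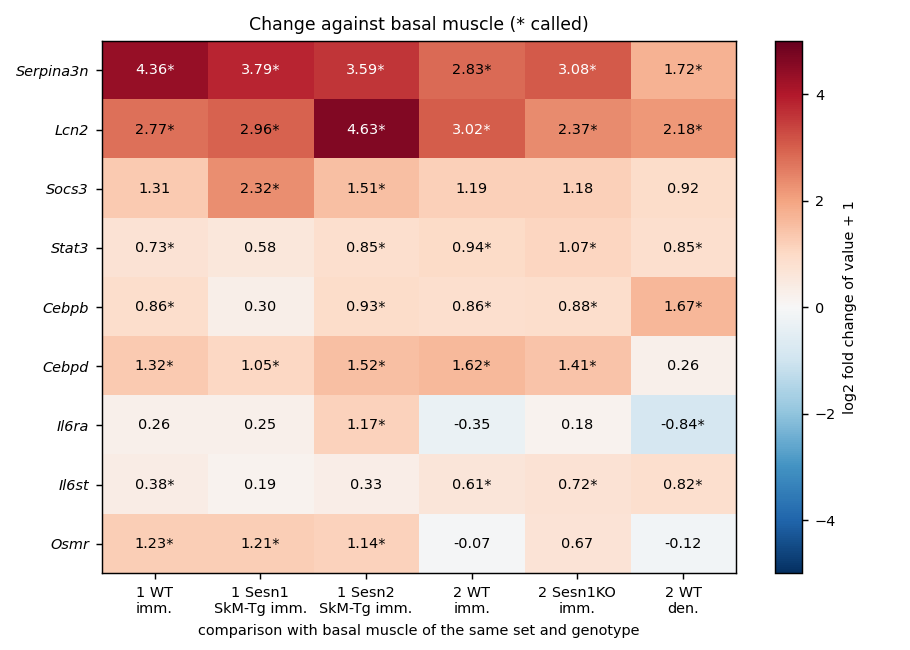
Log2 fold change of value + 1 of each member (rows) in immobilized or denervated against basal muscle of the same set and genotype (columns); an asterisk marks a called gene. Serpina3n and Lcn2 are called in all 6 columns, and Cebpd in all but denervation, where it is 0.26.

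Counted together, 7 of 9 members were called higher and 0 lower in immobilized WT muscle of set 1, where 29.3% of 13705 genes were called either way and 14.9% higher. In Sesn1SkM-Tg muscle 5 were called higher, against a background of 34.7% called and 18.2% higher, and in Sesn2SkM-Tg muscle 8, against 30.7% and 15%. Set 2 had 6 higher in WT muscle, where 33.9% of 13629 genes were called and 16.2% were higher, and 6 higher in Sesn1KO muscle, against 37.1% and 17.2%. After denervation 5 were higher and 1 lower, where 55.5% of genes were called and 27.8% were higher. The median log2 fold change of the 9 members was 1.23, 1.05 and 1.17 in WT, Sesn1SkM-Tg and Sesn2SkM-Tg muscle of set 1, 0.94 and 1.07 in WT and Sesn1KO muscle of set 2 and 0.85 after denervation, with the median of all genes within 0.03 of 0. When each library was scaled to the same sum, the median of all genes moved up by 0.25 to 0.27 in the 3 immobilization comparisons of set 1 and by 0.37 for denervation, and the share of called genes that were higher went from 50.7% to 84.7% in WT muscle of set 1, from 52.3% to 82.6% in Sesn1SkM-Tg and from 48.9% to 80.4% in Sesn2SkM-Tg muscle. In set 2 that share went from 47.7% to 64.3% in WT, from 46.4% to 60.1% in Sesn1KO and from 50.1% to 77.1% in denervated muscle. The comparisons with basal WT muscle of set 2 share their 4 control libraries. The members were chosen with earlier results of these data known, so their counts beside the shares of all genes are a description.

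The remaining genes of the pathway were taken from lists drawn up by role. Of all genes, 14.9% to 18.2% were called higher and 14.5% to 19.9% lower in the immobilization comparisons. After denervation these shares were 27.8% and 27.7%. Of 9 IL6 family ligands, 5 were in the table, without Osm, Lif, Il11 and Il27; Il6 itself averaged 0.0865 in basal and 0.579 in immobilized WT muscle of set 1. Cntf, ciliary neurotrophic factor, was the 1 ligand called higher, by a log2 fold change of 0.58 in WT and 0.68 in Sesn1SkM-Tg muscle, and Ctf1, cardiotrophin-1, fell in Sesn1KO muscle (-0.68). Among 5 other receptor genes, Lifr, the leukemia inhibitory factor receptor, was called lower in set 2 (-0.85 in WT, -1.07 in Sesn1KO and -0.65 in denervated muscle). Cntfr fell in Sesn1SkM-Tg (-2.06), Sesn2SkM-Tg (-1.40) and set 2 WT muscle (-1.20), Adam10, a protease that sheds receptors, was higher in Sesn1KO (0.39) and denervated muscle (0.64), and Il11ra1 was lower in denervated muscle (-0.54).

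The 4 Janus kinase genes in the table gave at most 2 calls in 1 direction in any of the 6 comparisons. Jak1 rose in Sesn1KO (0.51) and denervated muscle (0.35), Jak2 fell in denervated muscle (-0.86), and Jak3 rose in Sesn1SkM-Tg (0.67) but fell in immobilized (-0.63) and denervated muscle (-0.96) of set 2. Of the other STAT genes, Stat2 rose in Sesn1SkM-Tg (0.49) and fell in denervated muscle (-0.60), Stat5a rose in denervated muscle (1.06), and Stat5b fell in Sesn1SkM-Tg muscle (-0.58). Stat3 itself was called in 5 of the 6 comparisons.

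Of 14 other feedback inhibitors in the table, 1 to 4 were called higher and 2 to 4 lower in each of the 6 comparisons. The shares of all genes there were 14.9% to 27.8% higher and 14.5% to 27.7% lower. Ptpn2, a phosphatase that acts on Janus kinases and STATs, rose in all 6, by log2 fold changes between 0.69 and 1.03. Ptpn6, a phosphatase of blood cells, rose in WT (1.79) and Sesn1SkM-Tg muscle (1.96) of set 1 and in Sesn1KO muscle (0.87). Cish, a SOCS family member, fell in Sesn1SkM-Tg (-2.24) and Sesn2SkM-Tg muscle (-1.99), and Socs7 fell in all 3 genotypes of set 1 (-0.91, -1.07 and -1.12) and in denervated muscle (-0.93).

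Of the genes listed as STAT3 targets, 8 of 17 tested were called higher in WT, 12 in Sesn1SkM-Tg and 10 in Sesn2SkM-Tg muscle of set 1, with 0 lower and median log2 fold changes of 1.03, 1.204 and 0.99. In set 2, 5 of 16 rose and 1 fell in WT, 6 rose and 1 fell in Sesn1KO, and 5 rose and 2 fell in denervated muscle, with medians of 0.52, 0.67 and 0.40. Junb, a subunit of the AP-1 factor, rose in all 6 comparisons, from 0.99 in Sesn1KO to 2.83 in denervated muscle. Myc, a growth regulator, was called in all but Sesn2SkM-Tg muscle and reached 2.78 in denervated muscle. Timp1, an inhibitor of metalloproteinases, was called in all but Sesn2SkM-Tg muscle too, with 3.69 in Sesn1SkM-Tg muscle, and Il4ra, the interleukin 4 receptor, was called in the 3 genotypes of set 1 (2.04, 2.21 and 1.62).

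Of 27 other acute phase genes listed, 18 were in the table. In set 1, 10 of 15 tested rose in WT, 9 in Sesn1SkM-Tg and 9 in Sesn2SkM-Tg muscle with 0 lower (medians 1.19, 1.28 and 0.82). In set 2, 3 of 13 rose in WT, 2 rose and 1 fell in Sesn1KO, and 4 rose and 4 fell in denervated muscle (medians 0.06, 0.10 and -0.06). Of all genes, 16.2%, 17.2% and 27.8% were called higher in these set 2 comparisons and 17.7%, 19.9% and 27.7% lower. The metallothioneins Mt1 and Mt2, which bind zinc and copper, rose in all 6, Mt2 by 5.60 in WT muscle of set 1 and by 3.85 in denervated muscle. Saa3, a serum amyloid A gene, rose in all genotypes of set 1 (1.82, 1.84 and 1.99), and Orm2, orosomucoid-2, rose in Sesn2SkM-Tg (1.14) and denervated muscle (2.00). Serpina3m rose in set 1 (1.46, 1.57 and 0.98). Of 4 other C/EBP genes, Cebpa rose in WT (1.02) and Sesn1SkM-Tg muscle (0.74) of set 1. Ddit3, which encodes the stress factor CHOP, fell in WT muscle of set 1 (-0.77), Sesn1KO (-0.82) and denervated muscle (-1.16). Cebpz rose in immobilized WT (0.33), Sesn1KO (0.49) and denervated muscle (0.57) of set 2, and Cebpg in immobilized WT muscle of set 2 (0.53). The lists were drawn up with earlier results of these data known, so their counts are a description.

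**Figure D3:**
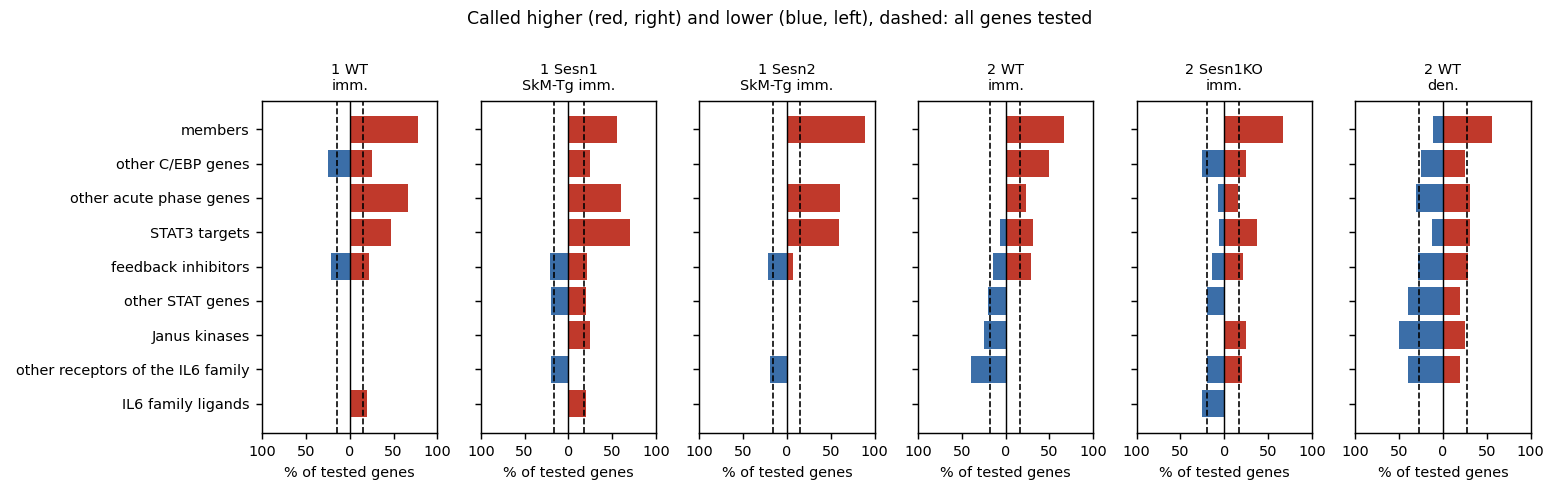
Share of the tested genes of each list called higher (red, to the right) or lower (blue, to the left) in immobilized or denervated against basal muscle; dashed lines give the shares of all genes tested. The 9 members reach 7 of 9 higher in WT muscle of set 1. The Janus kinase and ligand lists hold only 4 and 5 genes of the table, so a single call is a large share of a list. Their bars pass the dashed lines in some panels.

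The liver is the main source of acute phase proteins, so its markers were checked: 5 of 7 hepatocyte markers were in the table, 1 passed the filter, and they summed to 0.758 to 3.93 in all 42 libraries, with 0 called in the 6 comparisons. Neutrophils store lipocalin-2. Of 12 neutrophil markers, 7 were in the table, and the defining granule genes Ngp, Camp, Ltf, Elane and Mpo were not among them. The summed neutrophil level was 2.08 to 19.2 in basal and 3.65 to 66.6 in immobilized WT muscle of set 1, 2.06 to 4.13 and 3.06 to 92.2 in Sesn1SkM-Tg muscle and 1.72 to 8.47 and 6.09 to 66.2 in Sesn2SkM-Tg muscle, with 1, 3 and 1 of 7 markers called higher and 0 lower. In set 2 it was 3.45 to 28.2 in basal, 1.93 to 16.0 in immobilized and 5.06 to 11.04 in denervated WT muscle, and 2.22 to 24.0 in basal and 4.51 to 15.2 in immobilized Sesn1KO muscle. Of 6 markers tested there, 0 were called in immobilized WT muscle, 1 was higher in Sesn1KO muscle, and 1 was higher and 1 lower in denervated muscle. Of all genes, 14.9%, 18.2% and 15% were called higher in WT, Sesn1SkM-Tg and Sesn2SkM-Tg muscle of set 1. In set 2, 16.2% were higher and 17.7% lower in immobilized WT, 17.2% and 19.9% in Sesn1KO and 27.8% and 27.7% in denervated muscle. The marker counts below stand beside the same shares. The part of neutrophils in the values of Lcn2 was not tested. In the Sesn2SkM-Tg muscles the library with Lcn2 at 228 also had the highest neutrophil sum (66.2) and macrophage sum (291) of its group. The highest Lcn2 of immobilized set 1 WT (10.7) and Sesn1KO muscle (40.97) also went with the highest neutrophil sum (66.6 and 15.2). In immobilized Sesn1SkM-Tg muscle the library with the highest neutrophil sum (92.2) had the lowest Lcn2 (5.09). In immobilized WT muscle of set 2 the library with the highest Lcn2 (19.8) had the lowest neutrophil sum (1.93). Markers of fibroblasts (4 of 6 higher in WT and 5 in Sesn1SkM-Tg muscle of set 1, 0 in Sesn2SkM-Tg), of Schwann cells (4, 6 and 5 of 6) and of endothelium (3, 4 and 5 of 6) rose in set 1, while endothelial markers fell in set 2 (5 of 6 lower in immobilized WT, 2 in Sesn1KO and 6 in denervated muscle), as did 10 of 10 muscle fibre markers in denervated muscle. Of the 6 Schwann cell markers, 0 were called in immobilized WT, 2 were lower in Sesn1KO and 2 were lower in denervated muscle of set 2, where their sum was 12.6 to 15.6 against 26.4 to 46.3 in basal muscle. The summed satellite cell markers went from 25.9 to 29.9 in basal to 99.8 to 122 in denervated muscle, with 1 of 4 called, the myogenic factor Myod1 (log2 fold change 2.23). In whole muscle, fewer cells of a type and less RNA per cell cannot be told apart.

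Denervation was also compared directly with immobilization in WT muscle of set 2, where 38.9% of genes were called. Only 2 of 9 members differed, and in opposite directions. Cebpb was higher in denervated muscle, 24.9, 18.5, 28.5 and 25.9 against 13.8, 22.5, 10.2 and 9.69 (log2 fold change 0.81, SE 0.22, adjusted p = 0.00576; exact permutation p = 0.0571), and Cebpd was lower, 4.76, 4.37, 2.87 and 6.85 against 8.18, 28.6, 13.03 and 9.74 (log2 fold change -1.36, SE 0.39, adjusted p = 0.00885; exact permutation p = 0.0286, the smallest that 4 against 4 allows). The ranges of Cebpb overlapped through the immobilized library at 22.5, and those of Cebpd did not overlap. Il6st was higher by 0.21 with an adjusted p of 0.0271, under the fold threshold. Serpina3n and Lcn2 differed by -1.11 and -0.84 and did not pass (adjusted p = 0.222 and 0.276).

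The genotypes were compared at the same state, the question being whether sestrin levels went with a different level of these genes. Sesn2SkM-Tg muscle differed from WT for 2 of 9 members in the basal state, where 2.5% of genes were called, and for 3 in the immobilized state, where 2.94% were. In basal muscle Cebpb held 13.1, 13.4, 16.8 and 11.04 against 3.57, 6.11, 6.87 and 10.8 in WT (log2 fold change 0.96, SE 0.24, adjusted p = 0.0287) and Cebpd 7.53, 6.51, 9.41 and 4.78 against 1.81, 1.702, 3.25 and 4.64 (log2 fold change 1.10, SE 0.25, adjusted p = 0.0198). Every transgenic value was above every WT value for both genes (exact permutation p = 0.0286 and 0.0286, the smallest that 4 against 4 allows). In immobilized muscle Cebpb held 23.97, 31.1, 25.02 and 26.8 against 11.9, 11.9 and 13.7 (log2 fold change 1.04, SE 0.25, adjusted p = 0.0309), Cebpd 22.5, 19.03, 20.4 and 24.9 against 8.81, 7.06 and 8.85 (log2 fold change 1.297, SE 0.27, adjusted p = 0.0153), and Lcn2 11.4, 228, 46.6 and 44.4 against 4.23, 9.01 and 10.7 (log2 fold change 2.55, SE 0.56, adjusted p = 0.0181). The ranges did not overlap for these 3 genes, although the lowest transgenic Lcn2 value, 11.4, was close to the highest WT value, 10.7. Il6ra was higher too, 8.15, 8.29, 5.904 and 6.097 against 4.29, 1.47 and 4.12, without overlap, but did not pass (log2 fold change 0.99, adjusted p = 0.0634). Il6st was lower without passing, 161, 137, 164 and 203 against 206, 199.6, 198 and 214 in basal muscle (log2 fold change -0.31, adjusted p = 0.231) and 186, 225, 192 and 226 against 317, 215 and 278 in immobilized muscle (log2 fold change -0.37, adjusted p = 0.148). With both sets in 1 fit the immobilized difference of Il6st was called (adjusted p = 0.041). Serpina3n was also lower in immobilized muscle without passing (log2 fold change -0.82, adjusted p = 0.374). These calls are near the threshold: leaving out single libraries took the basal count to between 0 and 2 and the immobilized count to between 1 and 2. The basal calls of both genes were lost without Sesn2SkM-Tg basal replicate 1 or 3 or WT basal replicate 1 or 2, and that of Cebpb also without Sesn2SkM-Tg replicate 2 or WT replicate 3. In immobilized muscle the Cebpb call was lost without any 1 of the 7 libraries (adjusted p = 0.0506 to 0.0895), that of Lcn2 without WT replicate 1 (0.084) and that of Cebpd without WT replicate 2 (0.0548). The Lcn2 call was also lost when the fit held only the groups compared (adjusted p = 0.103). That of Cebpb was also lost with each library scaled to the same sum (adjusted p = 0.0542) and with the replicate number as a block (0.0601). The exact permutation p in immobilized muscle was 0.0286 for Cebpb and Cebpd and 0.0571 for Lcn2. Macrophage and leukocyte markers were lower in immobilized Sesn2SkM-Tg than in WT muscle for 2 of 10 genes (median log2 fold change -1.15), where 1.29% of all genes were called lower.

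**Figure D4:**
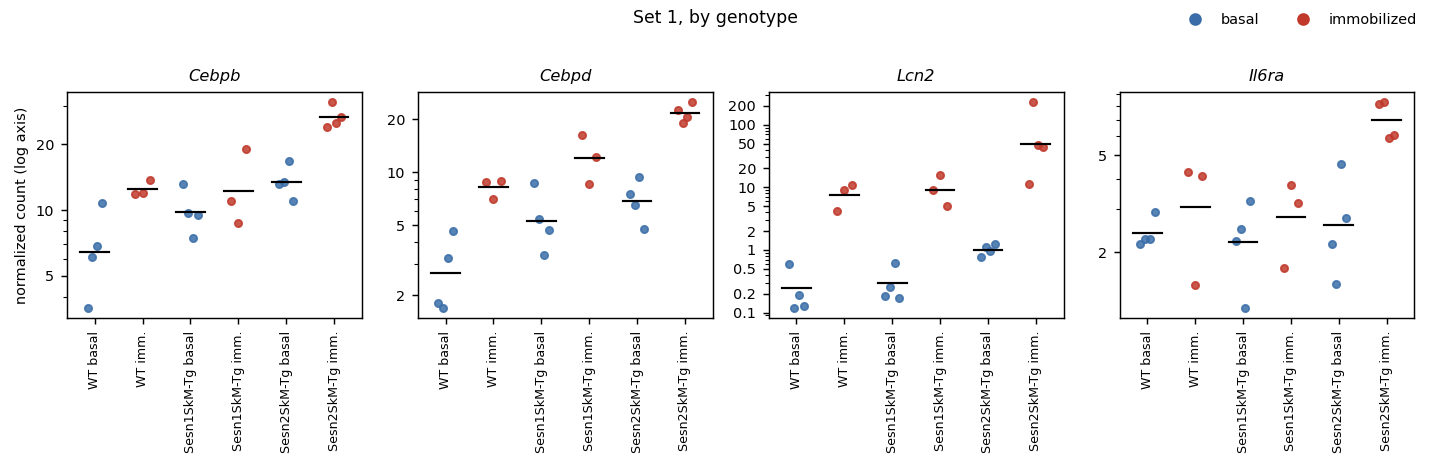
Normalized counts (log axis) of Cebpb, Cebpd, Lcn2 and Il6ra in the libraries of set 1 by genotype, basal in blue and immobilized in red, with bars for the means of log2(value + 1) on the linear scale. The 4 immobilized Sesn2SkM-Tg libraries lie above the 3 immobilized WT libraries for each of the 4 genes. The ranges of the other members, not shown here, overlap between these groups. The share of all genes with ranges apart was not computed.

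The other genotype comparisons called 0 members. Sesn1SkM-Tg against WT muscle called 0.0292% of genes in the basal and 0.0073% in the immobilized state, and at an unadjusted p under 0.05 limma gave 2 members (Cebpb and Cebpd) in the basal state and 0 in the immobilized state. At that unadjusted threshold 497 of 13705 genes passed in the basal and 417 in the immobilized state. In basal muscle Cebpd held 8.66, 5.39, 3.38 and 4.72 in Sesn1SkM-Tg and 1.81, 1.702, 3.25 and 4.64 in WT muscle (log2 fold change 0.77). Sesn1KO against WT muscle called 0.147% of genes in the basal and 0.947% in the immobilized state, with 0 members at an unadjusted p under 0.05 in either. Of all 13629 genes, 632 passed that unadjusted threshold in the basal and 1917 in the immobilized state. The largest basal differences of the knockout were -0.65 for Osmr and -0.63 for Serpina3n, the latter with 1 WT library at 11.4. In immobilized muscle the members differed between Sesn1KO and WT by log2 fold changes of -0.38 to 0.14.

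Whether immobilization changed the members by a different amount in each genotype was tested as a difference of differences, which called 0 of 9 members for Sesn1SkM-Tg, Sesn2SkM-Tg and Sesn1KO muscle and 0%, 0.0073% and 0.022% of all genes. At an unadjusted p under 0.05 limma gave 401 and 1008 of 13705 genes and 1087 of 13629 genes in these comparisons. Among the members it gave 0, 2 and 0, the 2 being Lcn2 and Il6ra in Sesn2SkM-Tg muscle. Their immobilization effects were larger than in WT muscle by 1.86 (SE 0.76, adjusted p = 0.613) and 0.91 (SE 0.39, adjusted p = 0.646) on the log2 scale. For Serpina3n the difference was -0.56 in Sesn1SkM-Tg, -0.77 in Sesn2SkM-Tg and 0.25 in Sesn1KO muscle, with standard errors of 0.69, 0.66 and 0.99, so a difference of 1 on the log2 scale could not be told from 0 for this gene.

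Single libraries stood at the extreme of their group for several members at once. Among the immobilized Sesn2SkM-Tg muscles, replicate 2 had the highest value of 7 of 9 members in its group and the highest of all 42 libraries for 6 of them, Serpina3n at 83.6, Lcn2 at 228, Socs3 at 42.4, Stat3 at 178, Cebpb at 31.1 and Il6ra at 8.29. Replicate 2 of the immobilized Sesn1KO muscles was likewise highest of its group for 7 members, with Socs3 at 32.5 against 2.83 to 3.56 in the other 3 and Stat3 at 147 against 77.7 to 80.3. It had the highest macrophage sum of its group, 422 against 71.3 to 214. Replicate 1 of the immobilized WT muscles of set 2 was lowest of its group for 8 members, with Serpina3n at 8.91, Socs3 at 1.83 and Stat3 at 58.9, while its macrophage sum of 204 was the second highest of the group. Basal WT replicate 3 of set 2, the library with Serpina3n at 11.4, was highest of its group for 6 members and had a macrophage sum of 181 against 43.8 to 80.4.

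Across libraries the members formed no single pattern. On log2 values over the 22 libraries of set 1 and the 20 of set 2, which share groups and treatments, Serpina3n and Lcn2 correlated at 0.84 and 0.89, Lcn2 and Stat3 at 0.80 and 0.96, and Socs3 and Stat3 at 0.86 and 0.78. Cebpb and Cebpd correlated at 0.91 in set 1 and at 0.35 in set 2, which holds the denervated muscles. Il6ra and Stat3 correlated at 0.67 in set 1 and -0.02 in set 2. The genes most like a member, of 13571 tested in both sets and ranked by the lower of both correlations, were Mt2, Mt1 and Card14 for Serpina3n (Mt2 at 0.93 and 0.92), Mt1, Card14 and Mt2 for Lcn2 (Mt1 at 0.92 and 0.93), Sbno2, Mt2 and Cttn for Stat3 (Sbno2 at 0.93 and 0.94) and Il4ra, Card14 and Ccl7 for Socs3 (Il4ra at 0.89 and 0.84). For Osmr they were Il4ra, Itgb2 and Unc93b1 (Il4ra at 0.86 and 0.81), and for Il6st Spire1, Slc6a6 and Odc1 (Spire1 at 0.83 and 0.93). Cebpd was most like Ddit4, 2410006H16Rik and Gas5 (Ddit4 at 0.90 and 0.83), and Cebpb most like Akt1, Pacsin2 and Adrm1 (Akt1 at 0.86 and 0.92). Il6ra had weaker matches in Notch4, Tnks1bp1 and Acvrl1 (Notch4 at 0.71 and 0.68). Exons of Cebpb, Cebpd and Stat3 overlap those of Tmem189, Spidr and Stat5a on the other strand over 312, 562 and 72 bases, and without stated strand information reads there cannot be assigned to 1 of both genes.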

How the data were processed

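RNA of TA muscle was sequenced in 42 libraries. By the study's methods and the submitters' processing notes, the authors checked reads with FastQC, trimmed them with Cutadapt 1.7.1 (reads under 30 bp discarded), quantified them against the mouse transcriptome (GRCm38, Ensembl release 76) with RSEM 1.2.20 and normalized them with limma. The deposited signal values are normalized counts per gene on a linear scale. They are not whole-read multiples, and no test for counts was applied. How the sets were combined is not given in the sources used here, and comparisons were kept within a set. All columns were used.

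Genes reaching 1 in any library of a set were kept, and log2(value + 1) was fitted in R 4.3.3 and limma 3.58.1 with all groups of the set (eBayes with trend). Two-sided p-values were adjusted over all genes of each of 16 comparisons. The fold and p thresholds are the study's. Single members were also compared by two-sided exact permutation tests. The fit was tested on simulated data. Replicate numbers of the labels did not pair the libraries: log2 deviations of same-numbered libraries correlated at a median of 0.037 in set 1 and -0.029 in set 2. Members and lists were chosen with earlier results of these data known. Named list genes are up to 4 per list that were called against basal muscle, those with the largest change. 1 gene that this rule names is not reported here. Sequences are RefSeq's, gene positions and exon lengths GENCODE M21's.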

Additional observations from a re-analysis of the deposited data

Results flagged for a closer look

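In the 9 groups of 4 libraries, 81 sets of values of the members were examined on the linear scale for 1 library far from the other 3. The rule was a gap beyond Dixon's 95% critical value. For independent, normally distributed values it flags about 1 set in 20, or about 4 here. Such a library was found 10 times. The members share libraries, so their sets are not independent, and the 10 cannot be weighed against the 4.

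Replicate 2 of the immobilized Sesn1KO muscles stood apart for 3 members, Lcn2 at 40.97 with the next library at 4.589, Socs3 at 32.46 with the next at 3.562 and Stat3 at 146.8 with the next at 80.33. Replicate 2 of the immobilized Sesn2SkM-Tg muscles stood apart for Lcn2 at 228.4, next to 46.64, and for Socs3 at 42.36, next to 8.348. Without it, the Socs3 change in that genotype lost its call, as given above, and those of Lcn2 and Serpina3n were kept.

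In basal muscle, Serpina3n was 11.38 in replicate 3 of the WT muscles of set 2, next to 2.049. Lcn2 was 0.5988 in replicate 1 of the WT muscles of set 1, next to 0.1907, both under 1 normalized count. Stat3 was 83.96 in replicate 4 of the Sesn2SkM-Tg muscles, next to 50.58, and Il6ra was 2.938 in replicate 4 of the WT muscles of set 1, next to 2.272. Cebpd was low, at 3.027, in replicate 2 of the Sesn1KO muscles, next to 4.911.

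No member differed between genotypes in its change on immobilization by the limma test of the difference.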

How the results depend on the processing

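Under 12 alternatives other than leaving out libraries, 183 of 192 counts of called members stayed within 1.5 times the value given. A log2 fold threshold of 1 took the count from 7 to 4 in immobilized WT muscle of set 1, from 6 to 3 in immobilized WT muscle and from 6 to 3 in denervated muscle of set 2, from 2 to 1 for denervated against immobilized muscle and from 2 to 1 for basal Sesn2SkM-Tg against WT muscle. The latter count was also 1 with each library scaled to the same sum, 1 with both sets in 1 fit and 0 when the fit held just the 2 groups, and the immobilized count of Sesn2SkM-Tg against WT went from 3 to 5 (4 higher and 1 lower) with both sets in 1 fit. The cause was not tested. With single libraries left out, the counts against basal muscle were 4 to 7 in WT, 4 to 5 in Sesn1SkM-Tg and 6 to 9 in Sesn2SkM-Tg muscle of set 1, 6 to 7 in WT, 6 to 6 in Sesn1KO and 5 to 6 in denervated muscle of set 2, and 2 to 3 for denervated against immobilized muscle. The lowest set 1 WT count came without basal replicate 1 or immobilized replicate 3. Sesn2SkM-Tg against WT gave 0 to 2 in basal and 1 to 2 in immobilized muscle, the other genotype comparisons and the differences of effects 0 to 0. Of 1727 values of single members under the alternatives, 38 lost and 16 gained a call, and of 1296 with a library left out 45 lost and 4 gained one; no called value changed sign, while 16 and 120 uncalled values did. With the replicate number as a block, which does not pair these libraries, the count became 7 in immobilized Sesn2SkM-Tg muscle, 5 in denervated muscle and 2 for immobilized Sesn2SkM-Tg against WT muscle, and was as given elsewhere. Because read depth is unknown, values under about 1 normalized count, such as Lcn2 in basal muscle, carry an unstated counting error.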

Other observations

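Lcn2 was already higher in basal Sesn2SkM-Tg muscle (0.765, 1.12, 0.966 and 1.23) than in basal WT muscle of set 1 (0.599, 0.119, 0.191 and 0.128), without overlap. The exact permutation p was 0.0286, the smallest possible, but the limma test on log2(value + 1) did not pass (log2 fold change 0.69, adjusted p = 0.578). Values near 1 are the range in which this scale understates a change. With a pseudocount of 0.1, which does so less, the difference was not called either. This gene was singled out after its values were seen.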
